A study of Mus musculus with 10 samples.

Results

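Heat shock chaperones were compared between the aortas of 5 mice lacking ApoE and 5 mice lacking both ApoE and IL-17, called the double knockout. The set was chosen by gene symbol, with earlier results of these data known. It held 10 genes: Hspa1a, Hspa1b, Dnajb1, Hsp90aa1, Hsph1, Hspb1, Hspa8, Hspd1, Hspe1 and Hsf1. A probe set carrying 1 symbol alone was found for 9 of them, out of 22180 genes measured, and Hsf1 was not analysed here. All 10 animals were male, on a C57BL/6 background, and ate a high fat diet from 8 weeks of age for 3 weeks, after which, at 11 weeks, their aortas were collected. Total RNA of each aorta was hybridized to an Affymetrix Mouse Gene 2.0 ST array. ApoE loss was thus shared by both groups, and no array of a mouse with intact ApoE was used here. The double knockout was made by crossing IL-17-/- mice on C57BL/6J into ApoE-/- mice, and the sources used here do not state whether animals of the 2 groups were littermates. The protocols entered for the ApoE knockout arrays speak of wild-type mice and mice lacking ApoE and caspase-1 instead and leave IL-17 out. The sources used here give no scan date or batch, so genotype and batch cannot be told apart.

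Heat shock chaperones bind unfolded or partly folded proteins and hold, refold or hand them over for degradation. When unfolded proteins accumulate, the transcription factor HSF1 is released from chaperones, forms trimers and binds heat shock elements, which are inverted repeats of the unit GAA, in the promoters of these genes. HSP70 proteins work in a cycle driven by ATP, in which HSP40 cochaperones deliver the client and stimulate ATP hydrolysis, and HSP110 proteins exchange the nucleotide. HSP90 matures signalling proteins, small heat shock proteins hold clients without ATP, and HSP60 with HSP10 forms the folding chamber of the mitochondrial matrix. In arteries, HSP70 and the small heat shock protein HSP27 are known from smooth muscle and from atherosclerotic plaques.

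The values are log2 intensities as deposited, 1 per probe set and array, and a difference of 1 on that scale is 2-fold. Array medians ran from 5.76 to 6.03, and the number of arrays sets the precision. The 95th percentile of the means of 1428 olfactory, vomeronasal and taste receptor genes was 5.80, a level below which a gene is hard to tell from background. Markers of the wall were well above it, with smooth muscle markers averaging 11.08 to 11.57 and endothelial markers 9.95 to 10.48 over the 10 arrays. Apoe, which both groups lack, lay at 6.07 to 6.47 in the single and 6.83 to 7.26 in the double knockout, and Il17a at 4.20 to 4.54 and 4.48 to 4.94. The sources used here do not place these probes relative to the deletions, so neither gene checks a genotype label. Over all genes, the median difference of double minus ApoE knockout was 0.10. It was -0.018 after quantile normalization and -0.11 after centring each array on its median, and differences are to be read relative to these shifts.

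The promoter sequences show how near the Hspa1a and Hspa1b copies are and where pairs of inverted GAA units lie. They are RefSeq sequences of build GRCm38.p6, given 5′ to 3′ on the strand of the gene, and capitals mark the units GAANNTTC or TTCNNGAA. Windows from 250 bases before to 50 bases after the start were found for 7 of the 10 genes, namely Hspa1a, Hspa1b, Dnajb1, Hsph1, Hspb1, Hspd1 and Hspe1. The 250 bases before the start are shown for the inducible HSP70 pair, from chr17:34972157-34972406 (minus strand) for Hspa1a and chr17:34959239-34959488 (minus strand) for Hspa1b.
Hspa1a: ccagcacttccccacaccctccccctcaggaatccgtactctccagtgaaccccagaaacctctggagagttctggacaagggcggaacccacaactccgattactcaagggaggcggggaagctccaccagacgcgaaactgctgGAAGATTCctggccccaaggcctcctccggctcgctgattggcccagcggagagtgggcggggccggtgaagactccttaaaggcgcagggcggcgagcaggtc
Hspa1b: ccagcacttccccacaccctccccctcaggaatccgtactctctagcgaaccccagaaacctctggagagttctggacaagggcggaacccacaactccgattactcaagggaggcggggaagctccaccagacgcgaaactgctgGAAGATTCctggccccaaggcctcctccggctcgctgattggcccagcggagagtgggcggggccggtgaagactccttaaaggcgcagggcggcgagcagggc
These stretches were equal at 247 of 250 bases, and over the whole windows at 296 of 300. The substitutions from Hspa1a to Hspa1b, counted from 1 at the first base shown, were C44T, T47C and T249G, so the pair of units and the ATTGG letters nearer the start were the same in both.

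Hspb1 is shown because it holds 2 pairs of units before the start, and Hsph1 because its start lies close to a pair of units on one side and to a run of 3 units on the other. Hspb1 was read from chr5:135887669-135887918 (plus strand) and Hsph1 from chr5:149636337-149636586 (minus strand).
Hspb1: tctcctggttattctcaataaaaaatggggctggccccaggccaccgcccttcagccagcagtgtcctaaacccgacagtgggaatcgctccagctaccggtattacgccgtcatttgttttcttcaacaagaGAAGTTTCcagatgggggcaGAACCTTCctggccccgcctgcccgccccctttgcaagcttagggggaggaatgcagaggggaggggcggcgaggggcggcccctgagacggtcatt
Hsph1: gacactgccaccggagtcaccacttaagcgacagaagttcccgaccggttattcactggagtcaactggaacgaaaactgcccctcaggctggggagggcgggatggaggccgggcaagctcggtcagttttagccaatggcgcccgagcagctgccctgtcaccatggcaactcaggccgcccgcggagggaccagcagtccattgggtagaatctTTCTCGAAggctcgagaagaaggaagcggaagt
The run of 3 units of Hsph1 lies after the start, from position 37 to 49, and reads TTCTGGAAAGTTC. RefSeq gives Hsph1 another start, with a window starting at 149636266. Counted from that start, the run lies from position 16 to 28, and the pair from -54 to -47 instead of -33 to -26. Hspd1 and Hspe1, the mitochondrial pair, are transcribed away from each other. RefSeq gives Hspd1 more than one start: the window starting at 55087883 shares 285 bases with that of Hspe1, and the window starting at 55088194 shares 4 and holds no pair of units. The stretch with the units is shown for Hspe1, from chr1:55088053-55088082 (plus strand), from position -95 to -66 counted from its start.
Hspe1: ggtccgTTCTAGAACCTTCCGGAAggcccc
Here 3 pairs overlap, from position -89 to -72, and the same letters lie in the first of these Hspd1 windows. The windows of Dnajb1 held no pair of units, which says only that these letters were not found there. Searched on both strands, a pair of units was present in 15.1% of 32851 promoter windows of this length, 3 units in a row (GAANNTTCNNGAA or TTCNNGAANNTTC, which contain the pair) in 0.603%, and CCAAT or ATTGG in 37.4%.

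The inducible HSP70 genes had the largest differences of the set, and both were higher in the double knockout. Hspa1a, on chromosome 17, encodes the HSP70 that is nearly silent in unstressed cells and rises with heat or proteotoxic stress. Its log2 values in the ApoE knockout were 10.67, 10.31, 10.66, 10.72 and 11.20 for replicates 1 to 5, and in the double knockout 12.05, 11.99, 11.73, 12.07 and 12.45. The lowest double knockout array lay above the highest ApoE knockout array. Hspa1a was 2.54-fold higher in the double knockout, a log2 difference of 1.35 ± 0.16 (SE, n = 5 per group, 95% confidence interval 0.99 to 1.70), with an adjusted p of 0.00033 in limma after Benjamini-Hochberg correction over all genes. It ranked 20 among the increases of all genes.

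Hspa1b, the neighboring copy encoding nearly the same protein, gave 9.43, 9.61, 10.01, 10.09 and 11.03 in the ApoE knockout. In the double knockout it gave 11.20, 11.63, 11.18, 11.40 and 12.20. These groups did not overlap either, but replicate 5 of the ApoE knockout lay apart from its group and close to the lowest double knockout arrays. The difference was 1.49 ± 0.29 (SE, n = 5 per group), or 2.81-fold, with an adjusted p of 0.0036 in limma, and Hspa1b ranked 12 among the increases. An increase of at least 2-fold that passed the test was seen in 109 genes, 0.491% of those measured.

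Since the coding sequences of both copies are nearly the same, probes can read both, and the copies are reported as uncertain relative to each other. A further probe set, carrying both symbols, gave means of 6.25 ± 0.35 and 7.37 ± 0.63 (SD, n = 5 each), a difference of 1.12 with an adjusted p of 0.017 over all probe sets in limma, and its groups overlapped. Hspa1l, the testis-enriched HSP70 that lies beside them on chromosome 17, rose by a smaller 0.43 ± 0.14 (SE, adjusted p = 0.035 in limma). Its difference was 0.40 after quantile normalization, where the adjusted p was 0.061. Snord52, the nearest measured gene on the other side, differed by 0.37 with an adjusted p of 0.17.

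**Figure D1:**
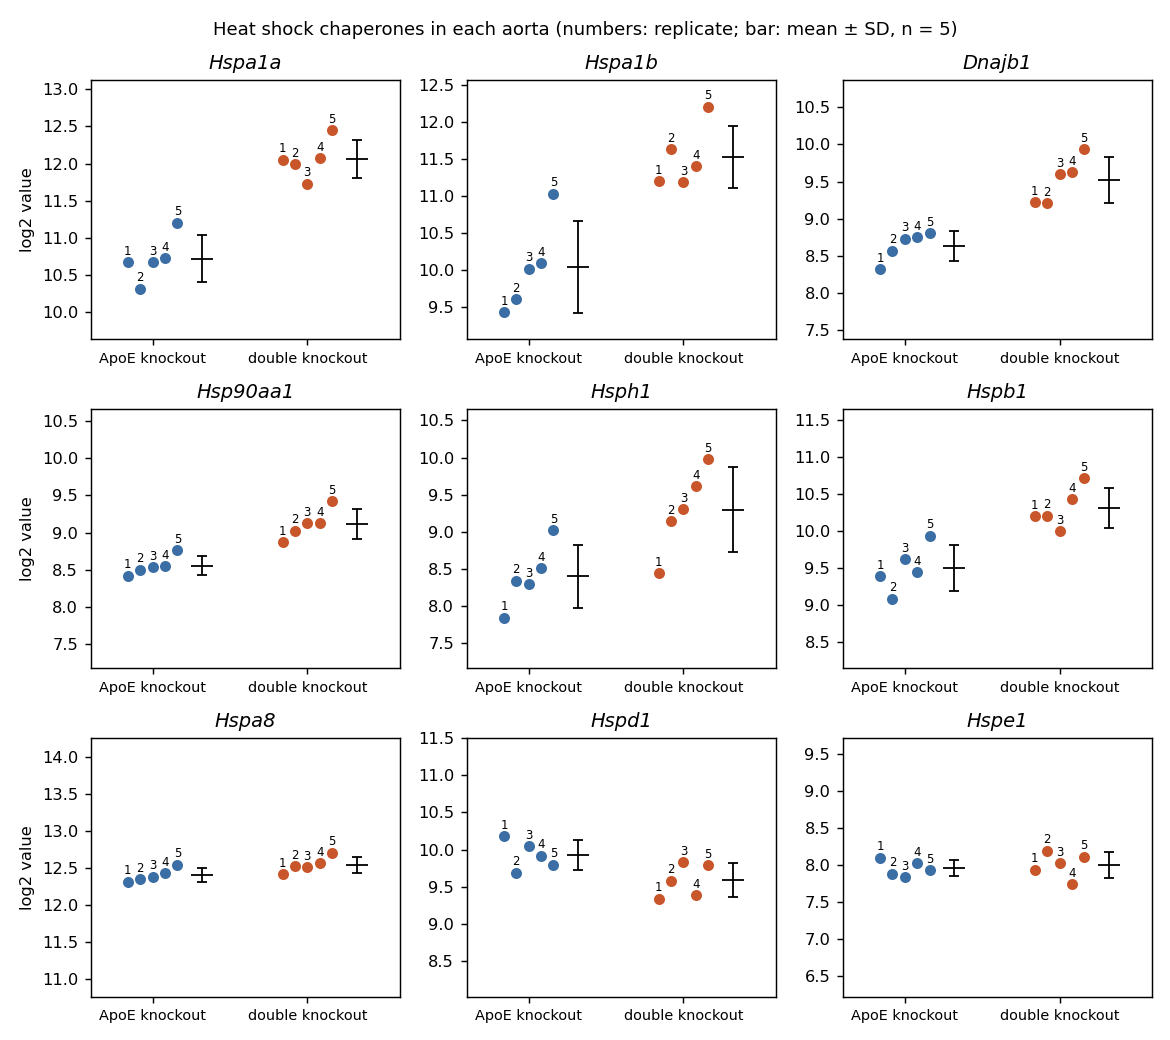
Log2 intensity (vertical axis) of the 9 measured chaperone genes in each of the 10 arrays, with ApoE knockout and double knockout side by side; points are arrays and the bars are the group mean and its SD. The points of Hspa1a, Hspa1b, Dnajb1, Hsp90aa1 and Hspb1 do not overlap between the groups, while those of Hsph1, Hspa8, Hspd1 and Hspe1 do.

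Both cytosolic cochaperones of HSP70 in the set were called higher in the double knockout. Dnajb1, the HSP40 protein that loads clients onto HSP70, gave 8.31, 8.57, 8.73, 8.75 and 8.80 in the ApoE knockout and 9.22, 9.21, 9.60, 9.63 and 9.94 in the double knockout. The groups were separate, and the ApoE knockout arrays lay close together. Dnajb1 was 1.85-fold higher in the double knockout, by 0.89 ± 0.15 (SE, n = 5 per group, adjusted p = 0.0017 in limma).

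Hsph1, the HSP110 protein that exchanges the nucleotide of HSP70, gave 7.84, 8.34, 8.29, 8.50 and 9.02 in the ApoE knockout and 8.44, 9.14, 9.30, 9.62 and 9.98 in the double knockout. Replicate 1 of the double knockout was level with the middle of the ApoE knockout, and replicate 5 of the ApoE knockout was within the range of the double knockout. The difference was 0.90 ± 0.27 (SE, n = 5 per group), or 1.86-fold, with an adjusted p of 0.029 in limma. This call was lost without any one of ApoE knockout replicates 1, 2 or 3 or double knockout replicates 3, 4 or 5. The adjusted p in limma was then between 0.055 and 0.067. Over all alternatives the adjusted p ran from 0.0016 to 0.35. The lowest came from a limma fit that took the replicate numbers as a block, although the labels do not say that they pair the arrays.

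Hsp90aa1, the stress-inducible cytosolic HSP90, gave 8.42, 8.50, 8.53, 8.54 and 8.76 in the ApoE knockout and 8.87, 9.02, 9.12, 9.13 and 9.43 in the double knockout. The groups were separate, with replicate 5 of the ApoE knockout just under the lowest double knockout array. Hsp90aa1 was 1.48-fold higher in the double knockout, by 0.56 ± 0.10 (SE, n = 5 per group, adjusted p = 0.003 in limma).

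Hspb1, the small heat shock protein HSP27, gave 9.39, 9.09, 9.62, 9.45 and 9.94 in the ApoE knockout and 10.21, 10.21, 9.999, 10.43 and 10.72 in the double knockout. The lowest double knockout array exceeded the highest ApoE knockout array by little. Hspb1 was 1.76-fold higher in the double knockout, by 0.82 ± 0.16 (SE, n = 5 per group, adjusted p = 0.0046 in limma). Another probe set named Hspb1 was dimmer, with means of 5.79 ± 0.15 and 6.84 ± 0.48 (SD, n = 5 each), and differed in the same direction by 1.05, with an adjusted p of 0.0058 over all probe sets in limma and no overlap.

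Hspa8, the constitutive HSC70 of the cytosol, did not pass the test. It gave 12.32, 12.35, 12.38, 12.43 and 12.55 in the ApoE knockout and 12.41, 12.52, 12.51, 12.56 and 12.71 in the double knockout, with overlapping groups. The difference was 0.14 ± 0.074 (SE, 95% confidence interval -0.024 to 0.30, adjusted p = 0.17 in limma), close to the median of all genes, and after centring the arrays it was -0.066. Relative to Hspa8 in the same array, the log2 ratio of Hspa1a was 1.21 higher in the double knockout and that of Hspa1b 1.35 higher. The 3 dimmer probe sets named Hspa8 differed by 0.33, 0.21 and 0.19, with adjusted p of 0.1, 0.14 and 0.16 over all probe sets in limma. Those at 0.21 and 0.19 had the same values in ApoE knockout replicates 3, 4 and 5 and double knockout replicate 1. They are thus not separate readings.

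A probe set that carries Hspa8 together with Snord14e behaved unlike those of Hspa8 alone. Snord14e is a small nucleolar RNA encoded in an intron of Hspa8. The shared probe set gave 7.86, 8.59, 8.36, 7.95 and 8.19 in the ApoE knockout and 10.04, 9.53, 9.95, 9.87 and 9.46 in the double knockout, with a wide gap between the groups. It was 3.00-fold higher in the double knockout, by 1.58 ± 0.16 (SE, n = 5 per group, adjusted p = 0.00034 over all probe sets in limma). The sources used here do not state which of the 2 transcripts its probes read, and it was not counted as Hspa8.

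Neither mitochondrial chaperone passed the test. Hspd1, the HSP60 subunit, gave 10.19, 9.69, 10.05, 9.92 and 9.80 in the ApoE knockout and 9.34, 9.58, 9.83, 9.38 and 9.79 in the double knockout. Its values were on average lower in the double knockout, by a log2 difference of -0.34 ± 0.12 (SE, 95% confidence interval -0.61 to -0.070), with overlapping groups and an adjusted p of 0.057 in limma. It passed the test as lower after centring the arrays (-0.55, adjusted p = 0.0083) and without ApoE knockout replicate 2, double knockout replicate 3 or double knockout replicate 5 (adjusted p = 0.042, 0.040 and 0.046), and over all alternatives the adjusted p ran from 0.0083 to 0.17.

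Hspe1, the HSP10 lid of that chamber, gave 8.10, 7.89, 7.84, 8.03 and 7.94 in the ApoE knockout and 7.94, 8.20, 8.03, 7.75 and 8.12 in the double knockout. The groups lay within each other, with a difference of 0.048 ± 0.093 (SE, 95% confidence interval -0.15 to 0.25, adjusted p = 0.71 in limma). The interval leaves room for a change of either sign, and after centring the arrays the difference was -0.16. Both genes lie on chromosome 1, as does Il17a, with 457 annotated genes between Il17a and Hspd1. The nearest measured neighbors of the pair, Coq10b and Mob4, differed by 0.12 and -0.13, with adjusted p of 0.40 and 0.35 in limma.

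Of the 9 measured chaperones, 6 were higher in the double knockout, and the median difference over the 9 was 0.82, against 0.10 over all genes. Over all genes, 22.8% were higher and 7.53% lower by the same test. No chaperone was called lower in limma, and 1, Hspd1, was lower at an unadjusted p under 0.05; the per-gene test with unequal variances also called 0 lower. The groups did not overlap for 5 of the 9, all of them higher in the double knockout, against 15.6% of all genes higher and 4.80% lower without overlap. After quantile normalization, which left 8.94% of all genes higher and 11.2% lower, the same 6 chaperones were called and their median was 0.85. With each array centred on its median, 7.52% of all genes were higher and 25.4% lower, and the median of the 9 was 0.61. In that fit 5 chaperones were higher and 1, Hspd1, lower, and Hsph1 was not called (0.69, adjusted p = 0.075). The per-gene test with unequal variances also called 5 higher, without Hsph1 (adjusted p = 0.083).

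**Figure D2:**
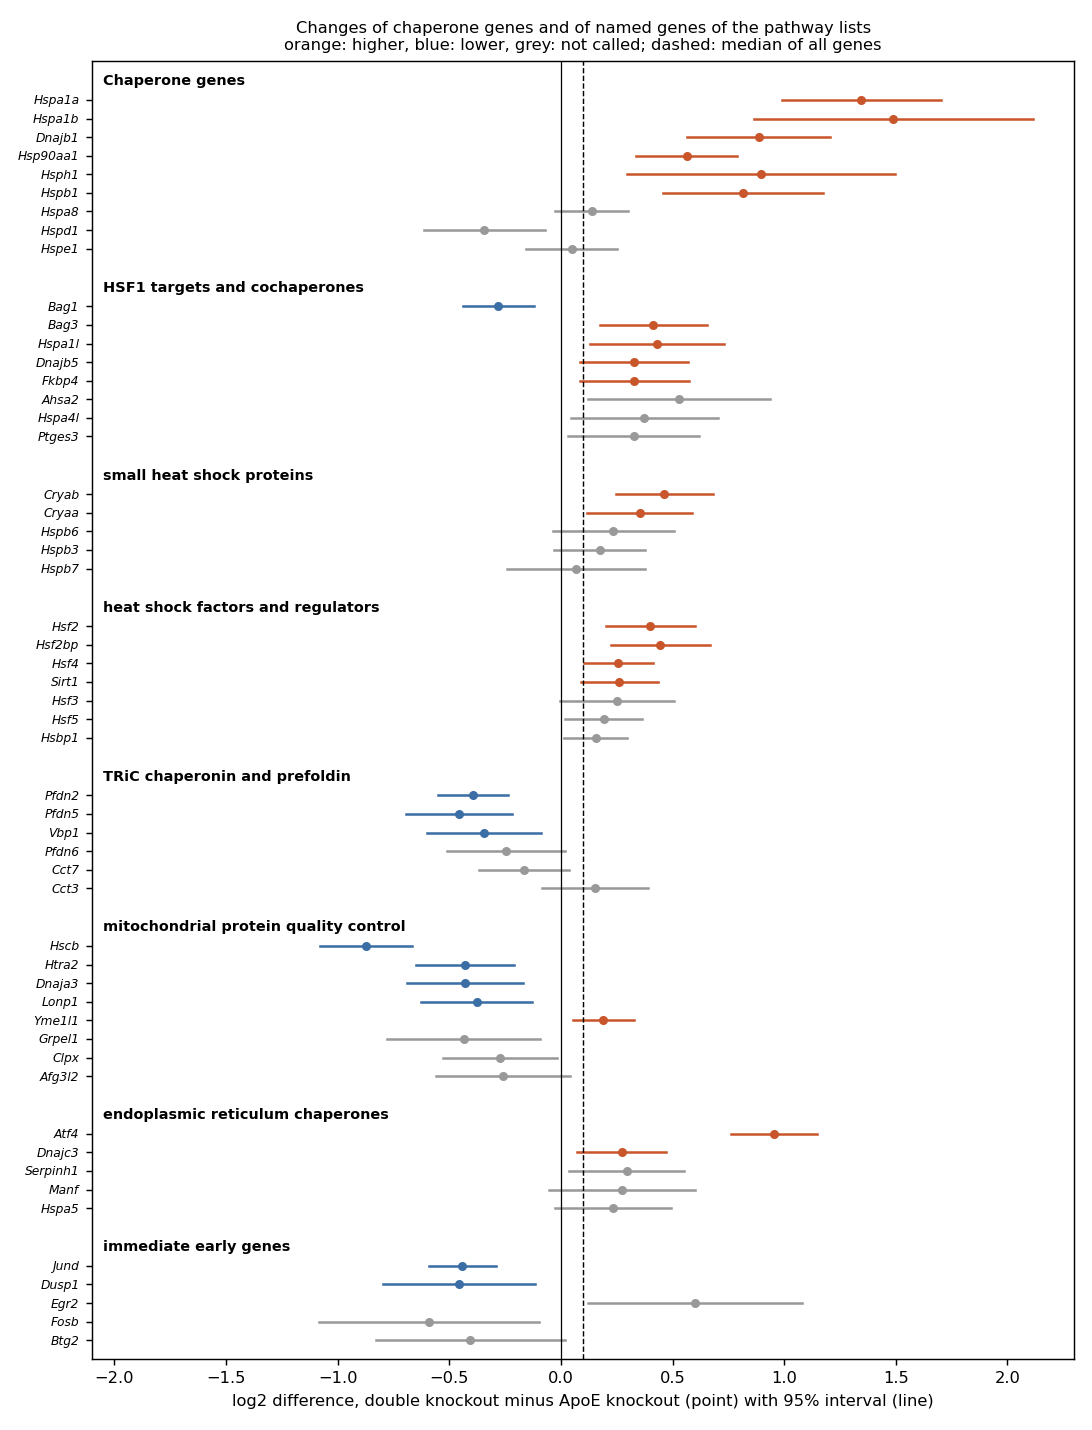
Log2 difference, double minus ApoE knockout (horizontal axis), of the 9 measured chaperone genes and of named genes of the pathway lists (points, with lines for the 95% confidence interval, coloured by the limma call), beside the median over all genes (dashed). At the top, Hspa1a and Hspa1b lie farthest to the right at 1.35 and 1.49, Hspa8 and Hspe1 near 0, and Hspd1 at -0.34. The pathway lists are described further on.

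Replicate 5 was the highest array of its group for 7 of the 9 genes in the ApoE knockout and for the same 7 in the double knockout, namely all but Hspd1 and Hspe1. The lowest array differed by gene. In the ApoE knockout it was replicate 2 for Hspa1a and Hspb1 and replicate 1 for the other 5 cytosolic genes. In the double knockout it was replicate 3 for Hspa1a, Hspa1b and Hspb1, replicate 2 for Dnajb1, and replicate 1 for Hsp90aa1, Hsph1 and Hspa8. The spread within groups was wide for some chaperones, with Hspa1b at an SD of 0.53 and Hsph1 at 0.51, the 98.3 and 98.0 percentiles of all genes. Hspa8 had an SD of 0.098, the 14.5 percentile.

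The deviations from the group mean split the cytosolic chaperones other than Hspa1b into groups of genes that varied together over the 10 arrays. These correlations are descriptions over arrays that share the same RNA, hybridization and scaling. Hsp90aa1 and Hspa8 had a Pearson correlation of 0.97 (Spearman 0.85), Hsp90aa1 and Hsph1 0.95 (0.98), and Dnajb1 and Hsp90aa1 0.88 (0.90). They held over the 8 arrays without replicate 5, at 0.88, 0.95 and 0.85. Hspa1a and Hspb1 also varied together, at 0.95 (0.82) over 10 arrays and 0.87 over 8. Between these sets the relation weakened without replicate 5. Hspa1a and Hsp90aa1 correlated at 0.66 (0.56) over 10 arrays and at -0.26 over 8, and Hspb1 and Hspa8 at 0.80 (0.79) and 0.35. Even Hspa1a and Hspa1b went from 0.86 (0.64) to 0.42. Hspa1b fell in neither set, although probes can read both copies, which leaves Hspa1a and Hspa1b uncertain relative to each other. Over 8 arrays Hspa1b correlated at 0.69 with Hspa8, 0.53 with Hspb1, 0.48 with Hsph1, 0.36 with Hsp90aa1 and 0.34 with Dnajb1. Hspd1 and Hspe1 correlated with each other at 0.56 (0.58), and at 0.52 over 8 arrays.

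**Figure D3:**
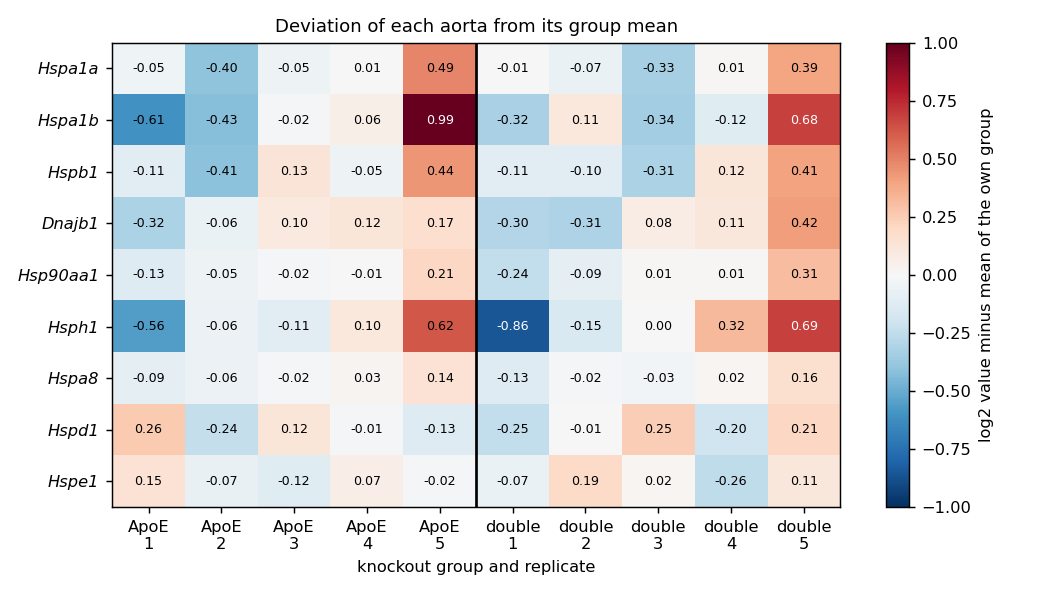
Deviation of each measured chaperone gene from the mean of its own group, in log2 units, for every array of both groups. Replicate 5 is high in both groups for the 7 cytosolic genes and not for Hspd1 and Hspe1.

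Among 13497 genes above the receptor level, the deviations most like the mean of Hspa1a and Hspa1b were those of Msrb3, a methionine sulfoxide reductase, with r = 0.97 (Spearman 0.92) over 10 arrays. Samd4 and Marveld1 followed at 0.96 (0.90 and 0.87), Edem3 at 0.96 (0.82), and the predicted gene Gm13861 at 0.95 (0.95). Without the 2 arrays farthest from the median, which were replicate 5 of both groups, r was 0.84, 0.83, 0.80, 0.79 and 0.91. None of the 5 passed the limma test between the groups, with adjusted p from 0.18 to 0.86. Of the other chaperones, Hspb1 was at rank 22 with r = 0.92 and Hspa8 at rank 59 with r = 0.88, and without those 2 arrays r was 0.77 and 0.54. Hsp90aa1, Hsph1 and Dnajb1 were at ranks 375, 682 and 1641.

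Markers of the cells an aorta can hold moved with the groups and with the arrays. RNA of whole aortas was measured, so fewer cells of a type and less RNA per cell cannot be told apart. The mean log2 value of 8 smooth muscle markers was 11.32, 11.08, 11.25, 11.32 and 11.56 in the ApoE knockout and 11.52, 11.45, 11.55, 11.50 and 11.57 in the double knockout. All double knockout arrays lay above all ApoE knockout arrays but replicate 5, which was level with them. Of these markers, Myh11, the smooth muscle myosin heavy chain, rose by 0.39 and Cnn1, calponin, by 0.28, and the other 6 did not pass the limma test. These 2 of 8 stand beside 22.8% of all genes called higher, and the per-gene test with unequal variances called 0 of the 8. The direction of Myh11 and Cnn1 held after quantile normalization, and after centring they differed by 0.18 and 0.074 and were not called.

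With the smooth muscle mean as a covariate, Hspa1a still differed by 0.97 (adjusted p = 0.0079) and Dnajb1 by 0.74 (adjusted p = 0.047). Hspa1b differed by 0.90 (adjusted p = 0.095), Hsp90aa1 by 0.42 (0.077), Hspb1 by 0.47 (0.12) and Hsph1 by 0.56 (0.35), so 2 of the 9 chaperones were called. In that fit 6.18% of all genes were higher and 1.80% lower. The SE went from 0.15 to 0.20 for Dnajb1, from 0.10 to 0.13 for Hsp90aa1 and from 0.27 to 0.36 for Hsph1. It went from 0.16 to 0.15 for Hspa1a, from 0.29 to 0.31 for Hspa1b and from 0.16 to 0.17 for Hspb1. Because the smooth muscle mean itself followed the groups, this fit cannot fully tell genotype and smooth muscle apart. Over all alternatives the adjusted p ran from 0.0002 to 0.0079 for Hspa1a, from 0.00079 to 0.095 for Hspa1b, from 0.00093 to 0.047 for Dnajb1, from 0.0013 to 0.077 for Hsp90aa1 and from 0.0024 to 0.12 for Hspb1. The part of smooth muscle in the chaperone differences was not tested beyond this fit.

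The brown adipocyte markers moved with the arrays within groups. The mean of 6 markers was 11.55, 10.38, 10.97, 10.78 and 9.14 in the ApoE knockout and 10.56, 10.17, 10.72, 9.63 and 9.47 in the double knockout, and it was lowest in replicate 5 of both groups, the arrays in which the cytosolic chaperones were highest. The median difference of the 6 was -0.56. Dio2 alone was called, higher by 0.62 and so against that median, and it was not called after centring. With this mean as a covariate all 6 chaperones were called, Hspa1a at 1.23 and Hspa1b at 1.22, in a fit with 21.3% of all genes higher and 7.93% lower. Without replicate 5 of both groups they were called as well, Hspa1a at 1.37, Hspa1b at 1.57 and Hsph1 at 0.88 (adjusted p = 0.027), with 19.0% of all genes higher and 6.28% lower.

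Cardiac muscle markers, which can come with the aortic root, averaged 6.30 to 6.87 against 6.66 to 7.73 in the double knockout. Of 7, 3 rose (1 after quantile normalization), among them Actc1 by 0.79 and Myl4 by 0.64, beside 22.8% of all genes higher. Neither Actc1 nor Myl4 was called after quantile normalization or after centring. The ApoE knockout mean of Actc1, 5.70, lay below the receptor level. With the mean of the 7 markers as a covariate Hsph1 was not called (0.92, adjusted p = 0.11) while the other 5 were. The SE of Hsph1 was 0.38 there, against 0.27 without a covariate. In that fit 14.5% of all genes were higher and 4.77% lower. Red cell markers fell in all 6 measured, with a median of -3.01, and averages of 9.35 to 10.15 against 6.84 to 7.38. T cell markers fell in 5 of 6, with a median of -0.95 and averages of 6.48 to 8.12 against 5.83 to 6.72. Over all genes 7.53% were lower. The per-gene test with unequal variances called 1 T cell marker and all 6 red cell markers lower. The part of red cells and T cells in the chaperone differences was not tested.

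Of the remaining lists, endothelial markers had 2 of 8 lower, Tek by -0.46 and Pecam1 by -0.28, beside 7.53% of all genes lower. The per-gene test with unequal variances called 0 endothelial markers lower. Endothelial averages were 10.16 to 10.48 against 9.95 to 10.36. Fibroblast markers had 2 of 7 higher, Lum by 0.44 and Col1a1 by 0.41, beside 22.8% of all genes higher. Their averages were 11.50 to 11.58 against 11.58 to 11.91. After quantile normalization Pecam1 was not called. Of 8 skeletal muscle markers Actn3 alone was called, higher by 0.49 (not after quantile normalization), and the averages were 5.46 to 6.44 against 5.52 to 6.08. None of 7 macrophage and 6 white adipocyte markers passed the limma test, with 0 and 1 at an unadjusted p under 0.05 and 0 by the per-gene test with unequal variances. Their averages were 9.07 to 9.51 against 8.76 to 9.78 and 8.90 to 10.56 against 8.54 to 9.77, and the part of these lists was not tested either. After centring, 5 of 8 endothelial, 3 of 7 macrophage and 2 of 6 white adipocyte markers were lower, beside 25.4% of all genes.

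**Figure D4:**
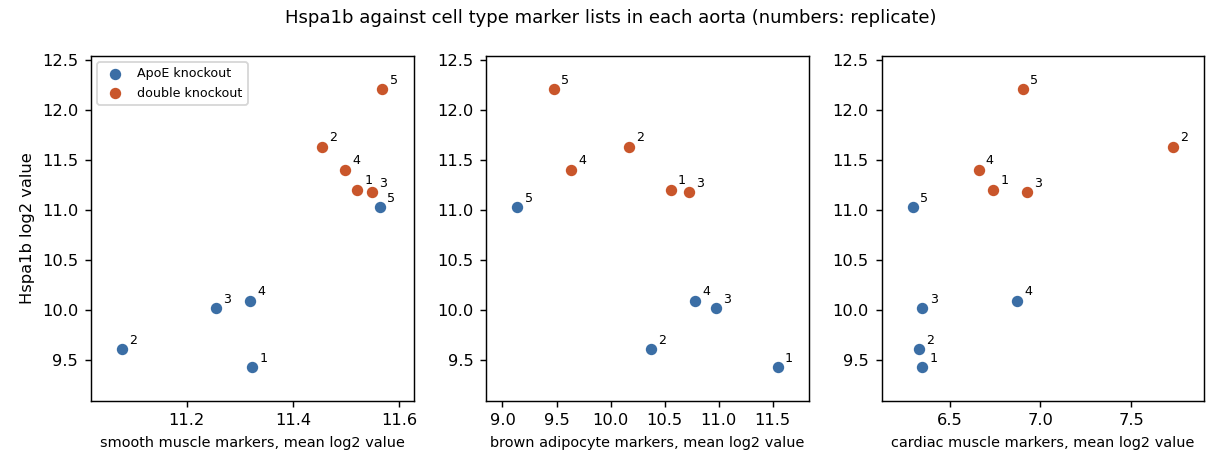
Log2 value of Hspa1b (vertical axes) against the mean log2 value of the smooth muscle, brown adipocyte and cardiac muscle markers (horizontal axes) in each of the 10 arrays, with the groups in different colours and replicate numbers beside the points. Replicate 5 of both groups has the lowest brown adipocyte mean of its group, at 9.14 and 9.47.

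Genes of the wider HSF1 pathway were counted beside the share of all genes. Of 29 listed HSF1 targets and cochaperones 24 were measured, with a median of 0.19, and limma called 4 of them higher and 1 lower. Hspa1l rose by 0.43, Bag3, the HSP70 nucleotide exchange factor of muscle, by 0.41, and the cochaperones Dnajb5 and Fkbp4 by 0.33 each. Bag1, another HSP70 nucleotide exchange factor, fell by 0.28. The 4 of 24 called higher stand beside 22.8% of all genes. The activator of HSP90 Ahsa2 (0.53), Hspa4l (0.37) and the HSP90 cochaperone Ptges3 (0.33) did not pass. Both group means of Ptges3, 5.41 and 5.74, lay below the receptor level. After centring the arrays, 0 were higher in limma (0 also at an unadjusted p under 0.05) and 3 lower. The count higher fell to 1 without any one of ApoE knockout replicates 1, 2, 3 or 4 or double knockout replicate 5, was 2 without double knockout replicate 4 and was 7 without ApoE knockout replicate 5.

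Other small heat shock proteins and the heat shock factors were counted beside the 22.8% of all genes called higher. Of 7 further small heat shock proteins measured out of 8, 2 were higher: Cryab, the alpha-B crystallin abundant in muscle, by 0.46 (adjusted p = 0.006 in limma), and Cryaa by 0.35. Cryaa was not called after quantile normalization, where it differed by 0.17, and neither was called after centring. Hspb6, Hspb3 and Hspb7 differed by 0.24, 0.17 and 0.069 and did not pass, and both group means of Hspb3 lay below the receptor level. Among 10 heat shock factors and regulators, 4 were higher, namely Hsf2 by 0.40, Hsf2bp by 0.45, Hsf4 by 0.26 and the deacetylase Sirt1 by 0.26. Hsf2 and Sirt1 remained called after quantile normalization, and none of the 4 after centring. In the ApoE and the double knockout, Cryaa averaged 5.83 and 6.18 and Hsf2bp 5.67 and 6.12, near the receptor level of 5.80.

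Chaperones of other compartments and folding machines moved in different directions. In the cytosolic TRiC chaperonin and its partner prefoldin, 3 of 13 measured fell, all prefoldin subunits: Pfdn2 by 0.39, Pfdn5 by 0.46 and Vbp1 by 0.34, and all 3 were lower under both other scalings. After centring 6 of the 13 fell, beside 25.4% of all genes, and the per-gene test with unequal variances called 2 lower. In mitochondrial protein quality control, 4 of 13 fell and 1 rose, with a median of -0.26, beside 7.53% of all genes lower. After centring, 9 of the 13 fell and the median was -0.47, beside 25.4% of all genes lower. Hscb, which delivers iron-sulfur clusters, fell by 0.87 (adjusted p = 0.00019 in limma), the proteases Htra2 and Lonp1 by 0.43 and 0.38, and the HSP40 protein Dnaja3 by 0.43. The protease Yme1l1 rose by 0.19, and differed by -0.014 after centring. Grpel1, the nucleotide exchange factor of mitochondrial HSP70, differed by -0.44 and did not pass, but it was called lower after centring, as were Clpx and Afg3l2.

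In the endoplasmic reticulum list, 2 of 18 rose, with a median of 0.13: Atf4, the transcription factor of the integrated stress response, by 0.96 (adjusted p = 7e-05 in limma), and Dnajc3 by 0.27. Over all genes 22.8% were higher, and the median was 0.10. After centring, 1 of the 18 was higher and 1 lower, with a median of -0.073, beside 7.52% of all genes higher and 25.4% lower. Atf4 was called under all 3 scalings, and Dnajc3 was not called after centring. Hspa5, the HSP70 of that compartment, differed by 0.23 and did not pass. Of 17 immediate early genes, which answer handling and dissociation of tissue as heat shock genes do, 2 fell, beside 7.53% of all genes: Jund by 0.44 and Dusp1 by 0.46. The other 15 did not pass, among them Egr2 at 0.60 and Fosb at -0.59. Dusp1 was not called after quantile normalization, where it differed by -0.43. After centring, 5 of the 17 fell, Fosb and Btg2 among them, beside 25.4% of all genes lower.

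The GAA units of the promoters were also set beside the differences of all genes. Among 107 measured genes with 3 units in a row, 19 rose and 6 fell, and the median was 0.12. Of 16990 measured genes with any window, 22.3% rose and 7.72% fell, and the median was 0.091. The share higher was 17.8% among the genes with 3 units, and 9.35% against 8.76% after quantile normalization. Among the chaperones, 3 had 3 units in a row, and of these Hsph1 was called while Hspd1 and Hspe1 were not; Hspa1a and Hspa1b, with the largest differences, held a single pair.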

How the data were processed

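Expression was measured in 10 aortas on Affymetrix Mouse Gene 2.0 ST arrays, 5 per group by sample title. The authors deposited 1 log2 value per probe set and array; that the base is 2 was inferred from their range, 0.80 to 13.88. The submitters' processing notes name limma without a version; the sources used here do not state how background was corrected or arrays normalized and summarized. Of 41345 probe sets, 23521 had 1 symbol in the platform annotation, 1814 several and 16010 none; 23328 of the single symbols were matched in the RefSeq gene table of GRCm38.p6. Where a gene had more than 1 probe set (1082 genes), the probe set of highest mean stood for it. The test was limma 3.58.1 (lmFit, eBayes; R 4.3.3), group as the only term, two-sided, with Benjamini-Hochberg adjustment at 0.05. Probe sets named outside that rule were fitted over all probe sets. Samples are labelled biological replicates; p-values measure the spread between them.

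Members and the 17 gene lists were chosen with earlier results of these data known. Named genes are the members; per pathway list up to 6 called genes of smallest p and 3 others of largest change; up to 2 called markers per cell type list; the 5 genes most like the HSP70 pair; and chromosomal neighbors. The probe sets carrying Snord14e or both HSP70 symbols were named after their values were seen. List means average the log2 values of the member genes. The code was tested on simulated data. Alternatives covered scaling, dim genes, the choice of probe set, array weights, the prior, replicate numbers, thresholds, per-gene tests and leaving out arrays; those with a marker mean as covariate or without replicate 5 were chosen after seeing the data. Figures were drawn with matplotlib 3.10.9.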

Additional observations from a re-analysis of the deposited data

How the results depend on the processing

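Of all genes, 5050 were higher and 1671 lower. The higher count was 1982 after quantile normalization, 1669 after centring arrays, 2355 without dim genes, 1565 with quantile normalization and that filter, 1370 and 3220 with the smooth muscle and cardiac muscle means as covariates, and 2336 at an adjusted p of 0.01. The lower count was 5641 after centring, 399 and 1059 with those covariates, and 634 at 0.01. Without 1 array they were 3935 to 5097 and 1121 to 1925.

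The 6 chaperones called higher were 2 with the smooth muscle covariate and 5 to 6 without 1 array. The chaperones called lower, 0 in limma, were 1 after centring and with a trended and robust prior, and 0 to 1 without 1 array. Hspa8 turned to -0.066 after centring, and Hspe1 to -0.16 after centring and -0.11 with the cardiac muscle covariate; none of these passed.

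The 4 HSF1 targets and cochaperones called higher were 0 after centring, 8 with array weights, 1 by the per-gene test with unequal variances, 1 with the brown adipocyte covariate, 0 with either muscle covariate, 0 at 0.01 and 1 to 7 without 1 array. At an unadjusted p under 0.05 the 0 counts were 0 after centring, 1 and 2 with the smooth and cardiac muscle covariates, and 9 for the threshold of 0.01. The 1 called lower was 3 after centring, 2 without dim genes, 2 with a trended and robust prior, 2 by the per-gene test with unequal variances, 1 to 2 without 1 array, and 0 without replicate 5 of both groups, with the smooth muscle covariate and at 0.01, where 2 had an unadjusted p under 0.05. The cause of these moves was not tested.

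The labels do not say that replicate numbers pair the arrays. Deviations of same-numbered arrays correlated at -0.13 to 0.26 over genes, above 0.1 for numbers 1, 2 and 5. The 6 of 10 arrays that correlated best with their own number were those numbered 1, 2 and 5 in both groups. This is a hint from the data that is not part of the design, and the main fit did not use the numbers as pairs. An alternative fit took them as a block. With the replicate block, 7 HSF1 targets and cochaperones were higher, the 6 chaperones were called as before, and the SE of Hsph1 was 0.091 (adjusted p = 0.0016).

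With 5 arrays per group no exact permutation test over samples can go below p = 0.0079, and the exact p was 0.0079 for the 5 chaperones whose groups did not overlap, 0.024 for Hsph1, 0.048 for Hspd1, 0.071 for Hspa8 and 0.57 for Hspe1.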
